A study of Drosophila melanogaster with 24 samples.

Results

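The Dpr and DIP genes of Drosophila encode a family of immunoglobulin-domain proteins of the cell surface, and their RNA was followed here through 6 genotypes of embryos aged 2 to 4 h. The genes were chosen by FlyBase symbol, as dpr followed by a number or DIP followed by a Greek letter from alpha to lambda, which gave 32 of the 17559 gene identifiers in the count table, 21 Dpr genes and 11 DIP genes. The mutant rescue embryos (rescue Y303F, rescue K26A and rescue HEBI) and the rescue WT embryos came from mothers in which the maternal driver tub-GAL4 expressed a short hairpin RNA against the histone deacetylase HDAC3, and also had a copy of HDAC3 that the hairpin cannot target, driven by the HDAC3 promoter. HDAC3 shRNA embryos had the hairpin and no such copy, and control embryos (tub-GAL4/+) had the driver without the hairpin. Each genotype was sequenced as 4 whole-embryo libraries, 24 in all, with between 9.99 and 26.6 M counts per library (median 19.6 M).

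Several features limit these groups as models. The driver acts in the maternal germline, each library pooled many embryos, and per the study the embryos were offspring of F1 siblings, so that their own copies of the transgenes segregated. All rescue transgenes were inserted at attP40, on chromosome arm 2L, and the hairpin at attP2, on 3L, so these insertions and the stock chromosomes around them also distinguished the genotypes from control, and the effects of insertion and stock cannot be told apart from the labelled genotype. The study also found substantial RNA of the endogenous HDAC3 locus in rescue Y303F embryos. HDAC3 itself was listed at 0 counts in all 24 libraries, so neither its depletion nor its rescue could be read from the table and the genotypes are as labelled.

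Dpr stands for defective proboscis extension response, the phenotype by which the first member was found, and DIP for Dpr-interacting protein. Members of both groups carry immunoglobulin domains on the surface of neurons, and a given DIP binds particular Dprs on a facing cell. In the nervous system of later stages, cognate pairs such as DIP-alpha with Dpr6 and Dpr10 mark which neurons contact which muscles or neurons, and some pairs keep neurons alive. Embryos of the age studied pass through cellularization and gastrulation, before neurons send out axons.

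The 32 genes lay on every major chromosome arm, with 9 on 2L, 5 on 2R, 4 on 3L, 8 on 3R, 5 on X and 1, dpr7, on chromosome 4 (coordinates of BDGP6, which equal dm6). Their genomic spans and total exon lengths were both longer, by the median, than those of all protein-coding genes. Their median genomic span was 32.5 kb against 2.15 kb over the 13685 protein-coding genes of the table, and the median exon length was 3.22 kb against 1.73 kb. The shortest span was that of dpr19 at 3.74 kb and the longest that of DIP-lambda at 379.1 kb. Several members were neighbours. On 3L the end of dpr6 (9974651 to 10139360, plus strand) was 8093 bases from the end of dpr10 (10147454 to 10186108, minus strand), which encodes the other Dpr partner of DIP-alpha, and on 2L DIP-eta and DIP-theta were 8344 bases apart.

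The family was expressed at low levels. Over the 24 libraries the members took between 15 counts (dpr21) and 4551 counts (dpr19), and none was at 0 in every library, although 19 members were at 0 in at least 1. A filter on low counts kept 18 members for testing, 13 Dpr and 5 DIP genes, among 10003 genes in all. The 14 removed were dpr1, dpr2, dpr3, dpr5, dpr9, dpr11, dpr15, dpr21, DIP-beta, DIP-gamma, DIP-delta, DIP-zeta, DIP-kappa and DIP-lambda, with 15 to 117 counts each over all libraries. Fitted without the filter, 1 of these was called in 1 comparison, DIP-lambda in rescue K26A against control (log2 fold change -3.27, adjusted p = 0.0377), on 2 counts in rescue K26A and 22 in control. They include both partners of the pairs DIP-gamma with Dpr11 and DIP-beta with Dpr21, and the DIP of the pairs DIP-delta with Dpr12 and DIP-beta with Dpr8, whose Dpr genes were tested.

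To compare levels between genes, counts per M of scaled library counts (CPM) were divided by exon length, and the mean of the 6 genotype means was taken. On this per-length scale dpr19 was highest at 3.48 CPM per kb, dpr7 followed at 1.30 and DIP-alpha at 0.924, and DIP-epsilon (0.831), dpr4 (0.793) and dpr6 (0.446) came next. The lowest members were dpr2 at 0.0165 and DIP-delta at 0.0156 CPM per kb. Between neighbours in this order the gaps were small, since the genotype means of dpr7 ranged from 0.947 (rescue HEBI) to 1.75 (control) CPM per kb and those of DIP-alpha from 0.758 (HDAC3 shRNA) to 1.11 (rescue Y303F). The 16 members with spans below the family median had a median level of 0.154 CPM per kb, against 0.0558 CPM per kb for the 16 longer ones, and 11 of the shorter and 7 of the longer ones were tested. DIP-alpha went against this tendency, with a span of 64405 bases. In control embryos dpr19, DIP-alpha, dpr6, dpr4 and dpr7 together made up 70.6% of the summed CPM of the family.

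**Figure D1:**
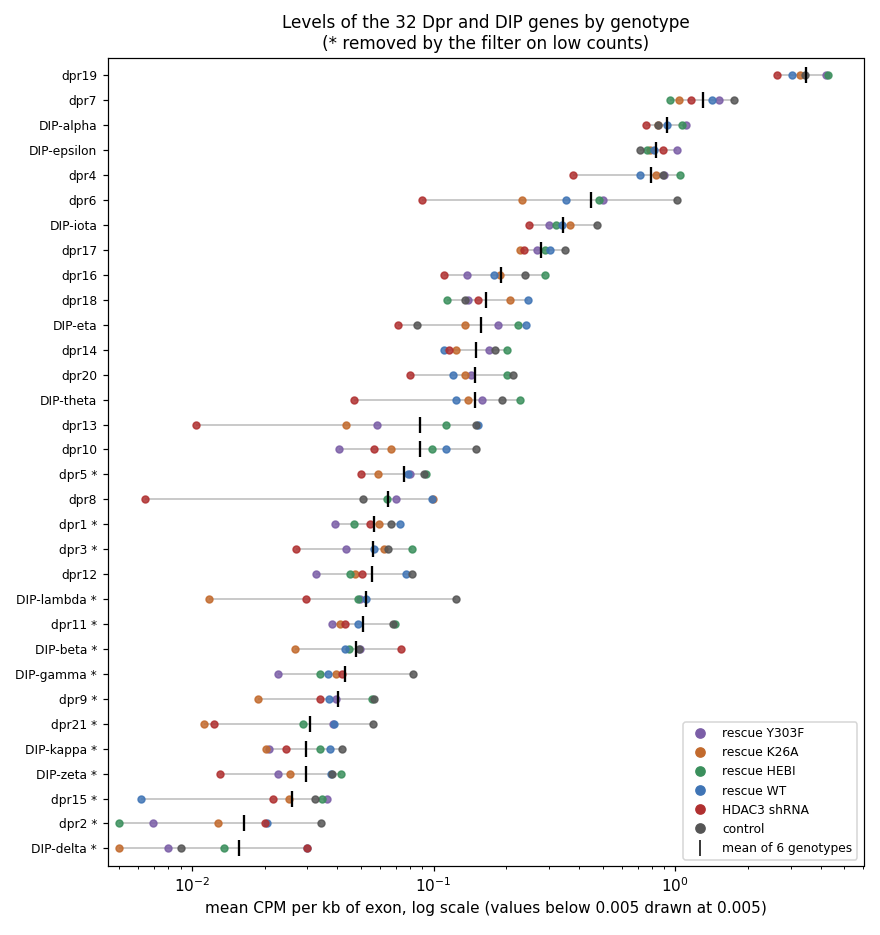
Mean level of each of the 32 Dpr and DIP genes in CPM per kb of exon (log axis), with a point per genotype and a black bar for the mean of the 6 genotypes, with an asterisk on the 14 genes removed by the filter. Levels ranged between 3.48 (dpr19) and 0.0156 (DIP-delta), and on this scale the widest spreads between genotypes among the tested genes were those of dpr6, dpr13 and dpr8, with HDAC3 shRNA at the low end.

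Summed over all 32 members, the family stood at 25.5 ± 14.7 CPM in HDAC3 shRNA embryos and 40.5 ± 11.1 CPM in control embryos (SD, n = 4 each), and it was lower in HDAC3 shRNA within each of the 4 replicate numbers. The rescue sums were 39.5 ± 15.7 (Y303F), 31.2 ± 19.3 (K26A), 40.0 ± 14.4 (HEBI) and 34.2 ± 12.9 (WT) CPM. In every genotype the sums followed the replicate number. In HDAC3 shRNA the sums of replicates 1 and 2 were 13.5 and 12.1 CPM and those of replicates 3 and 4 were 38.1 and 38.4 CPM, and in control the corresponding values were 33.2 and 28.9, then 49.2 and 50.6 CPM.

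This split ran through the most abundant members. Tested over all 24 libraries with genotype in the model, the level of 12 of the 18 members differed with the replicate number at an adjusted p of 0.05 or less, where 84% of all 10003 genes did. The adjusted p-values that follow are from this test over the 4 numbers. The gene dpr19 averaged 14.3 ± 2.27 CPM in replicates 3 and 4 and 4.42 ± 1.89 CPM in replicates 1 and 2 (SD, n = 12 libraries each, adjusted p = 3.45e-09, edgeR), without overlap. DIP-alpha averaged 11.2 ± 2.12 and 5.40 ± 1.46 CPM on the same split (adjusted p = 5.31e-08), also without overlap, dpr7 averaged 3.08 ± 1.12 and 0.868 ± 0.455 CPM (adjusted p = 1.09e-05), and dpr4 and DIP-epsilon were higher in replicates 3 and 4 as well. By contrast dpr6 was lower in replicates 3 and 4, at 2.09 ± 1.45 against 3.54 ± 2.58 CPM (adjusted p = 0.00105).

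Markers of developmental stage also differed on average between these pairs of replicates. Summed markers of the early blastoderm were on average lower in replicates 3 and 4 than in replicates 1 and 2 in all 6 genotypes, with means of 349.7 and 539 CPM in HDAC3 shRNA and 245 and 1212 CPM in control, and 631.3 and 681.2 CPM in rescue K26A, whose replicate 4 (824.7 CPM) was above its replicates 1 and 2. Summed neuronal markers were higher there, at 69.9 and 17.4 CPM in HDAC3 shRNA and 100 and 56.2 CPM in control. What the numbers stand for is not in the labels, and the part of embryo age in the levels of the members was not tested. Because libraries with the same number deviated together, each comparison below was also fitted with the replicate number as a block, and those values are given where they change a call or a count.

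The first comparison asked which members changed when maternal HDAC3 was knocked down. In HDAC3 shRNA against control embryos, 2 of the 18 tested members were called lower (adjusted p at most 0.05 and at least 2-fold), dpr6 and dpr13, and none was called higher, against 6.97% of all tested genes called lower. The 18 members had a median log2 fold change of -0.78, where all tested genes had a median of 0.013, and 16 of the 18 had a negative estimate, as did 49.2% of all genes. With the replicate number as a block, 8 members were called lower, dpr4, dpr6, dpr8, dpr13, dpr16, dpr20, DIP-theta and DIP-iota, against 17.3% of all genes.

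The gene dpr6, which encodes a partner of DIP-alpha on the facing cell, had the clearest difference of the family. It measured 0.700, 0.780, 0.540 and 0.235 CPM in HDAC3 shRNA replicates 1 to 4, against 6.94, 9.54, 4.29 and 4.80 CPM in control replicates 1 to 4. Every knockdown library was far below every control library, and the knockdown mean was 8.82% of the control mean. The log2 fold change was -3.50 (SE 0.463, adjusted p = 7.46e-05), and it lay between -3.73 and -3.24 whichever of the 24 libraries was left out. It was also called in replicates 1 and 2 alone, at -3.48 (adjusted p = 2.67e-04), and in replicates 3 and 4 alone, at -3.58 (adjusted p = 0.0109).

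Genes around dpr6 were called lower at near the share of all tested genes. Of 65 other genes tested within 500 kb of dpr6 on either side, 4 were called lower (6.15%) and none higher. Over all tested genes 6.97% were called lower. The window was set after the values were seen, and its genes had a median log2 fold change of 0.09. None of the exon bases of dpr6 is shared with another annotated gene, but 12 annotated features lie inside its span. Among these CG42826 was called lower (log2 fold change -2.90, adjusted p = 0.0277), CG32053 was at 10.5 CPM in HDAC3 shRNA and 11.2 CPM in control (-0.09, adjusted p = 0.937), and CG32054 was at 1.16 and 2.18 CPM (-0.90, adjusted p = 0.356). The adjacent dpr10 was at 0.0583, 0.146, 0.442 and 0.157 CPM in HDAC3 shRNA and 0.197, 0.298, 0.785 and 0.853 CPM in control. The estimate was -1.37 (SE 0.661, adjusted p = 0.204). Its groups overlapped and no difference was called, with or without the block.

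The gene dpr13, a Dpr of the same immunoglobulin family, was counted 3 times in the 4 HDAC3 shRNA libraries together and 35 times in the 4 control libraries. It measured 0, 0.0488, 0.0491 and 0.0392 CPM in HDAC3 shRNA and 0.0985, 0.417, 0.543 and 0.906 CPM in control. The groups did not overlap, although control replicate 1 was close to the knockdown libraries. The ratio of the summed, scaled counts was 0.0743, with an exact 95% interval of 0.0146 to 0.236 that covers counting error only, and the fitted log2 fold change, which at so few counts depends on the prior count, was -3.57 (SE 0.794, adjusted p = 0.00743).

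**Figure D2:**
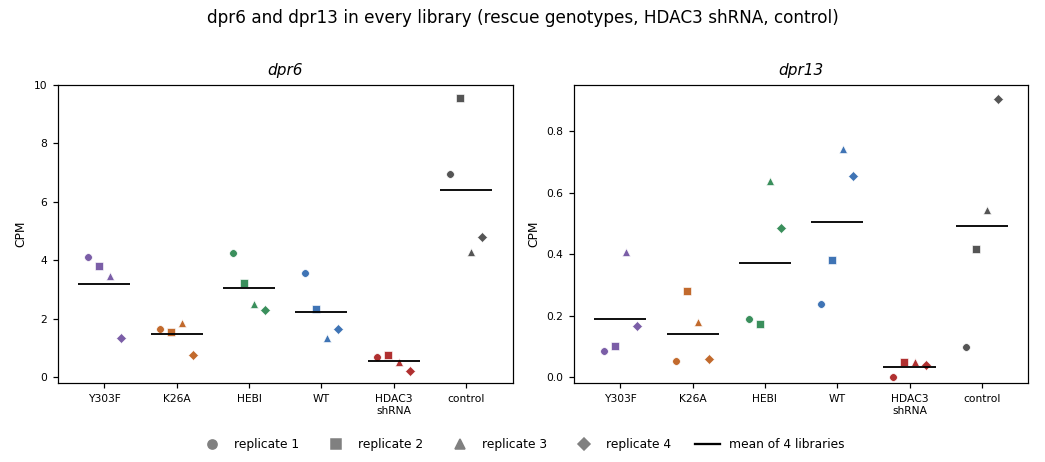
CPM of dpr6 and dpr13 in each of the 24 libraries, by genotype, with the replicate number as the marker shape and the mean of 4 libraries as a black line. In HDAC3 shRNA dpr6 stood between 0.235 and 0.780 CPM, below the 4.29 to 9.54 CPM of control, with the rescue genotypes between them.

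DIP-theta also had every knockdown library below every control library, at 0.175, 0, 0.246 and 0.118 CPM in HDAC3 shRNA and 0.542, 0.298, 0.725 and 0.639 CPM in control. It was not called without the block (log2 fold change -2.00, SE 0.834, adjusted p = 0.135) and was called with it (-2.08, SE 0.681, adjusted p = 0.0151). These 3 members out of 18 compare with 8.67% of all tested genes whose knockdown libraries all lay below all control libraries.

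The gene dpr8, whose protein binds DIP-beta, had few counts in the knockdown, at 0, 0, 0.0491 and 0.0784 CPM in HDAC3 shRNA and 0.0492, 0.119, 0.362 and 0.480 CPM in control. The groups overlapped, because control replicate 1 was as low as the knockdown libraries. The 3 and 18 counts of HDAC3 shRNA and control gave a ratio of 0.144 (exact 95% interval 0.0273 to 0.495), the fit gave -2.64 (SE 0.956, adjusted p = 0.0824), and it was called with the block (-2.67, SE 0.680, adjusted p = 0.00313) and, without the block, when control replicate 1 was left out (-3.025, adjusted p = 0.0399).

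DIP-alpha, the binding partner of Dpr6 and Dpr10, did not follow dpr6. It measured 5.13, 3.66, 10.2 and 8.23 CPM in HDAC3 shRNA and 7.39, 4.53, 8.51 and 10.02 CPM in control. The libraries overlapped throughout, and the log2 fold change was -0.16 (SE 0.459, adjusted p = 0.847). The other 2 members with the highest levels per length overlapped likewise. In HDAC3 shRNA dpr19 was at 2.22, 2.00, 10.4 and 13.6 CPM, and in control at 6.60, 4.53, 13.04 and 12.9 CPM (-0.39, SE 0.693, adjusted p = 0.745). In HDAC3 shRNA dpr7 was at 0.408, 0.634, 2.26 and 3.72 CPM, and in control at 1.58, 1.25, 3.86 and 3.89 CPM (-0.58, SE 0.792, adjusted p = 0.670).

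For dpr19 the knockdown libraries separated from control in replicates 1 and 2 and not in replicates 3 and 4. In replicates 1 and 2 alone both knockdown libraries were below both control libraries (log2 fold change -1.42, SE 0.309, adjusted p = 0.00978), whereas in replicates 3 and 4 alone the fold change was -0.15 (SE 0.186, adjusted p = 0.603), and with the block, at -0.67 (adjusted p = 0.0184), it fell short of the 2-fold required for a call. Likewise dpr4 was called in replicates 1 and 2 alone (-2.24, adjusted p = 0.0121) and not in replicates 3 and 4 alone (-0.93, adjusted p = 0.195). For neither gene was the difference between these pairs of replicates tested. Of the other tested members, DIP-epsilon (0.32) and dpr18 (0.15) were the 2 with positive estimates, and dpr12, dpr14, dpr17 and DIP-eta had log2 fold changes between -0.65 and -0.23, none called with or without the block. Those of dpr4 (-1.22), dpr16 (-1.07), dpr20 (-1.36) and DIP-iota (-0.90) had adjusted p-values of 0.261, 0.431, 0.1396 and 0.345 without the block, and with it of 0.00309, 0.0189, 0.0274 and 0.0381. Without control replicate 1, dpr20 was also called without the block (-1.71, adjusted p = 0.0447).

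**Figure D3:**
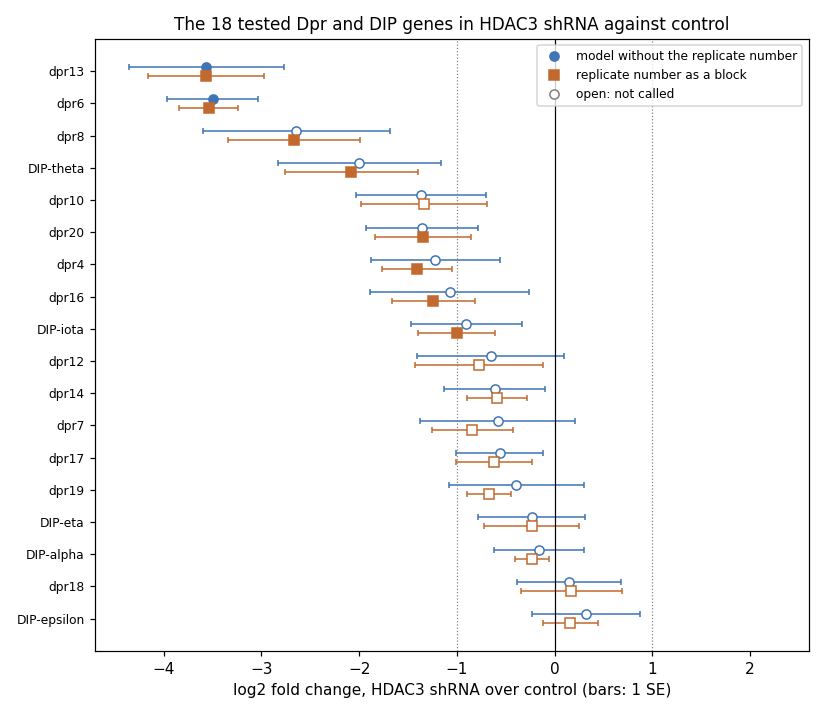
Log2 fold change of HDAC3 shRNA over control for the 18 tested members, with bars of 1 SE, from the model without the replicate number (circles) and with it as a block (squares), filled where the gene was called. Estimates moved between the models by less than 1 SE of the model without the block, 2 members were called without the block and 8 with it, and 16 of 18 estimates without it were below 0.

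Markers of other cell types moved in the same comparison. The marker lists were chosen with earlier results of these data known, so their counts describe these data and are not independent evidence. In HDAC3 shRNA 3 of 5 muscle genes and 3 of 3 midgut genes were called lower. So were 5 of 5 genes of cuticle and late epidermis, called cuticle below. Over all tested genes 6.97% were called lower. The muscle sum was 16.04 to 273.8 CPM in HDAC3 shRNA and 188.7 to 1289 CPM in control, the cuticle sum 1.81 to 15.1 and 31.3 to 409.3 CPM, and the midgut sum 0.196 to 2.11 and 7.04 to 140.5 CPM, with no gene of these lists called higher and TwdlB, a cuticle gene, at 0 in all HDAC3 shRNA libraries. Of 4 tested early blastoderm genes 1 was called lower, Z600 (-1.39, adjusted p = 0.0280), and of 3 tested eggshell and yolk genes 1 was called higher, dec (3.27, adjusted p = 0.0432), with list medians of -0.62 and 2.42. None of 4 glial or 6 neuroblast and proneural genes was called. For neurons, 0 of 7 tested markers were called, with a median log2 fold change of -1.10 and sums of 14.5 to 88.1 CPM in HDAC3 shRNA and 47.6 to 122.7 CPM in control, and no neuronal marker was at 0 in either group. The neuronal marker elav had 27.8 ± 21.7 and 44.3 ± 20.7 CPM. Among control libraries the muscle, cuticle and midgut sums were lowest in replicate 1 and highest in replicate 3. In control replicates 1 to 4 dpr6 was at 6.94, 9.54, 4.29 and 4.80 CPM, and dpr13 at 0.0985, 0.417, 0.543 and 0.906 CPM. These orders rest on 4 libraries and cannot be told apart from the replicate number. The parts of cell composition and of embryo age in the change of the members and of these markers were not tested. In pooled whole embryos fewer cells of a type, less RNA per cell and a different mix of embryo ages cannot be told apart.

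Other cell surface families were set beside the Dpr and DIP genes. None of 12 tested Beat and Side genes, which encode another interacting pair of immunoglobulin families in axon guidance, was called in HDAC3 shRNA against control (median log2 fold change -0.47), and none of 22 axon guidance receptors and ligands was (median 0.06). Of 20 other neural immunoglobulin proteins 1 was called lower, wrapper, a glial surface protein, at 0.864 ± 0.363 CPM in HDAC3 shRNA and 4.65 ± 0.984 CPM in control (-2.42, SE 0.500, adjusted p = 0.00426). Of 11 leucine-rich repeat proteins 1 was called lower, caps (capricious), a surface protein of target recognition by motor axons, at 4.03 ± 1.86 and 9.65 ± 3.62 CPM (-1.26, SE 0.336, adjusted p = 0.0206). The median of these 11 was -0.27. The leucine-rich repeat protein cDIP, which binds several Dprs and DIPs, was removed by the filter, with 4 counts in HDAC3 shRNA and 22 in control.

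The next comparison asked how far the rescue transgenes restored the members, measured against the knockdown. The level of dpr6 was higher than in every HDAC3 shRNA library in all 16 rescue libraries. It measured 4.10, 3.81, 3.46 and 1.35 CPM in rescue Y303F, 1.66, 1.57, 1.88 and 0.782 CPM in rescue K26A, 4.24, 3.21, 2.5 and 2.31 CPM in rescue HEBI, and 3.57, 2.34, 1.34 and 1.65 CPM in rescue WT. The lowest of these, replicate 4 of rescue K26A, was just above the highest knockdown library (0.780 CPM). It held 13 counts, against 16 in that knockdown library, and the share of all genes with this pattern was not counted.

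Against HDAC3 shRNA, dpr6 was called higher in rescue Y303F (log2 fold change 2.49, SE 0.450, adjusted p = 0.00549), where 0.54% of all genes were called higher, in rescue HEBI (2.44, SE 0.448, adjusted p = 0.00316), where 0.94% were, and in rescue WT (1.98, SE 0.444, adjusted p = 0.0298), where 0.88% were. The call in rescue WT was lost in 7 of the 24 fits that left out 1 library, namely each HDAC3 shRNA library and rescue WT replicates 1, 2 and 4, with an adjusted p of up to 0.0945. With only the 2 compared genotypes in the fit, dpr6 was not called in rescue Y303F (2.51, adjusted p = 0.156) or rescue WT (2.01, adjusted p = 0.231). In rescue K26A dpr6 was not called (1.39, SE 0.442, adjusted p = 0.469), in a comparison in which 0.19% of all genes were called in either direction, and with the block it was (1.43, SE 0.300, adjusted p = 0.00701).

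For dpr13 the rescue libraries measured 0.0873, 0.103, 0.407 and 0.168 CPM in Y303F, 0.0519, 0.280, 0.179 and 0.0602 CPM in K26A, 0.188, 0.172, 0.638 and 0.484 CPM in HEBI, and 0.238, 0.382, 0.741 and 0.653 CPM in WT. All 16 were above all 4 HDAC3 shRNA libraries in CPM, but the HDAC3 shRNA libraries held only 3 counts together. By count the rescue and knockdown libraries were not all apart. Rescue Y303F replicate 2 and rescue K26A replicates 1 and 4 held 1 count each, as did HDAC3 shRNA replicates 2, 3 and 4. The share of all genes with this pattern was not counted. The gene was called higher than in HDAC3 shRNA in rescue HEBI (3.17, SE 0.801, adjusted p = 0.0386) and rescue WT (3.62, SE 0.788, adjusted p = 0.0251), and not in rescue Y303F (2.27, SE 0.834, adjusted p = 0.329) or rescue K26A (1.84, SE 0.853, adjusted p = 0.9999). The ratios of summed, scaled counts over HDAC3 shRNA were 5.49 (exact 95% interval 1.55 to 29.6) in Y303F, 4.02 (1.06 to 22.5) in K26A, 10.3 (3.17 to 52.7) in HEBI and 14.7 (4.71 to 73.8) in WT. These intervals overlap one another. Leaving out 1 library ended the call in 6 fits for rescue HEBI (each HDAC3 shRNA library and rescue HEBI replicates 3 and 4, adjusted p up to 0.120) and in 5 fits for rescue WT (HDAC3 shRNA replicates 1, 2 and 4 and rescue WT replicates 3 and 4, adjusted p up to 0.0943).

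In all, 1 member was called higher in rescue Y303F, 0 in rescue K26A, 2 in rescue HEBI and 2 in rescue WT against HDAC3 shRNA, and none was called lower. At an unadjusted p under 0.05 (edgeR), there were 5 members in rescue Y303F, 3 in rescue K26A, 7 in rescue HEBI and 4 in rescue WT. No share of all genes was counted for this threshold, and K26A had the fewest. DESeq2 called 0 in rescue K26A. With the block these counts became 5 of 18 in rescue Y303F (6.59% of all genes higher), 2 in rescue K26A (1.02%), 8 in rescue HEBI (9.56%) and 4 in rescue WT (8.52%). Besides dpr6 and dpr13 the blocked calls held dpr8 in all 4 rescues and DIP-eta in all but K26A, dpr4 in Y303F and HEBI, and dpr16, dpr20 and DIP-theta in HEBI. In the blocked fits dpr13 was called in Y303F (2.30, adjusted p = 0.0109) and not in K26A (1.92, adjusted p = 0.114).

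In CPM, dpr8 was above all knockdown libraries in every rescue library, but the knockdown libraries held only 3 counts together. The share of all genes with this pattern was not counted for dpr8 either. By count the lowest were not apart, with 2 counts each in rescue Y303F replicate 2, rescue K26A replicate 1 and HDAC3 shRNA replicate 4. The gene was called in every rescue with the block. Without it dpr8 was called only in rescue WT, by DESeq2 (3.82, adjusted p = 0.0233) or when control replicate 1 or rescue K26A replicate 1 or 3 was left out (adjusted p 0.0363 to 0.0441). It measured 0.262, 0.206, 0.661 and 0.253 CPM in rescue Y303F, 0.104, 0.224, 1.16 and 0.481 CPM in rescue K26A, 0.188, 0.172, 0.266 and 0.646 CPM in rescue HEBI, and 0.297, 0.191, 0.741 and 0.730 CPM in rescue WT. Against HDAC3 shRNA the log2 fold changes were 3.12, 3.62, 2.97 and 3.60 (adjusted p = 0.176, 0.157, 0.121 and 0.0584), and with the block 3.23, 3.58, 3.11 and 3.67 (adjusted p = 0.00109, 0.00211, 0.00113 and 4.68e-04), for Y303F, K26A, HEBI and WT in that order.

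Set against control, dpr6 stayed low in all rescues. The gene lies on 3L, the arm of the hairpin insertion at attP2, which HDAC3 shRNA and all rescues carried and control lacked. For dpr6 an effect of insertion or stock thus cannot be told apart from the genotype. The mean of dpr6 was 49.8% of the control mean in rescue Y303F, 23.0% in rescue K26A, 48.0% in rescue HEBI and 34.8% in rescue WT, and in each rescue all 4 libraries were below all 4 control libraries. That pattern was shared by 4.57%, 6.65%, 3.55% and 1.76% of all tested genes in these 4 comparisons. It was called in rescue K26A (log2 fold change -2.11, SE 0.431, adjusted p = 0.00842), where 3.14% of all genes were called lower, and this call held in the 24 fits that left out 1 library (adjusted p 0.00435 to 0.0304) but not in replicates 3 and 4 alone. It was not called in rescue Y303F (-1.01, SE 0.416, adjusted p = 0.329), rescue HEBI (-1.06, SE 0.416, adjusted p = 0.409) or rescue WT (-1.52, SE 0.422, adjusted p = 0.149), in which no member was called and 0.74%, 0.58% and 0.33% of all genes were called in either direction. With the block it was called in all 4 rescues, at -1.06 (adjusted p = 0.0139) in Y303F, -2.11 (adjusted p = 3.68e-05) in K26A, -1.05 (adjusted p = 0.0191) in HEBI and -1.54 (adjusted p = 0.00147) in WT.

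For the members as a whole, blocked fits against control called 1 in rescue Y303F, 2 in rescue K26A, 2 in rescue HEBI and 2 in rescue WT, against 5.85%, 12%, 3.82% and 2.01% of all genes called in either direction. The counts without the block were 0, 1, 0 and 0. At an unadjusted p under 0.05 there were 3, 2, 2 and 2 members, a threshold for which no share of all genes was counted. DESeq2 called 0, 1, 0 and 1, the last being dpr6. The second blocked call in K26A was dpr13 (-1.65, SE 0.496, adjusted p = 0.0165), which without the block was at -1.73 (SE 0.681, adjusted p = 0.182). In rescue WT dpr13 was close to control, at 102.5% of its mean (0.05, SE 0.612, adjusted p = 0.9999).

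DIP-eta, a DIP whose gene adjoins DIP-theta on 2L, was the only tested member with all libraries of a rescue above all control libraries. Means of other members were also above control. That of dpr8 was at 136.8% of control in rescue Y303F, 195% in K26A, 125.9% in HEBI and 193.9% in WT, with overlapping libraries. DIP-eta measured 0.480, 0.412, 0.610 and 0.716 CPM in rescue Y303F, 0.104, 0.168, 0.804 and 0.542 CPM in rescue K26A, 0.753, 0.688, 0.426 and 0.807 CPM in rescue HEBI, and 0.654, 0.478, 0.973 and 0.769 CPM in rescue WT. The values were 0.117, 0.195, 0.344 and 0.196 CPM in HDAC3 shRNA and 0.0985, 0.238, 0.362 and 0.320 CPM in control. All libraries of rescue Y303F, HEBI and WT were above all control libraries, as were those of 2.44%, 2.27% and 1.48% of all tested genes, whereas rescue K26A overlapped control.

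Without the block DIP-eta was not called in any of these comparisons (log2 fold change against control 1.13, 1.38 and 1.49 in Y303F, HEBI and WT, adjusted p = 0.420, 0.368 and 0.353). With it the gene was called in rescue HEBI (1.501, SE 0.441, adjusted p = 0.0396) and rescue WT (1.51, SE 0.436, adjusted p = 0.0494) and not in rescue Y303F (1.16, SE 0.448, adjusted p = 0.0946). DIP-eta lies on the arm that carries the rescue transgenes at attP40, so an effect of insertion or stock cannot be told apart from the rescue genotype. Of 89 other genes tested within 500 kb of DIP-eta, a window set after the values were seen, none was called higher than control in any rescue. Over all genes 0.23%, 0.3%, 0.22% and 0.13% were called higher in Y303F, K26A, HEBI and WT, too few for this window to decide. In the same order 2, 5, 2 and 1 of the 89 were called lower, where 0.51%, 3.14%, 0.36% and 0.2% of all genes were.

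**Figure D4:**
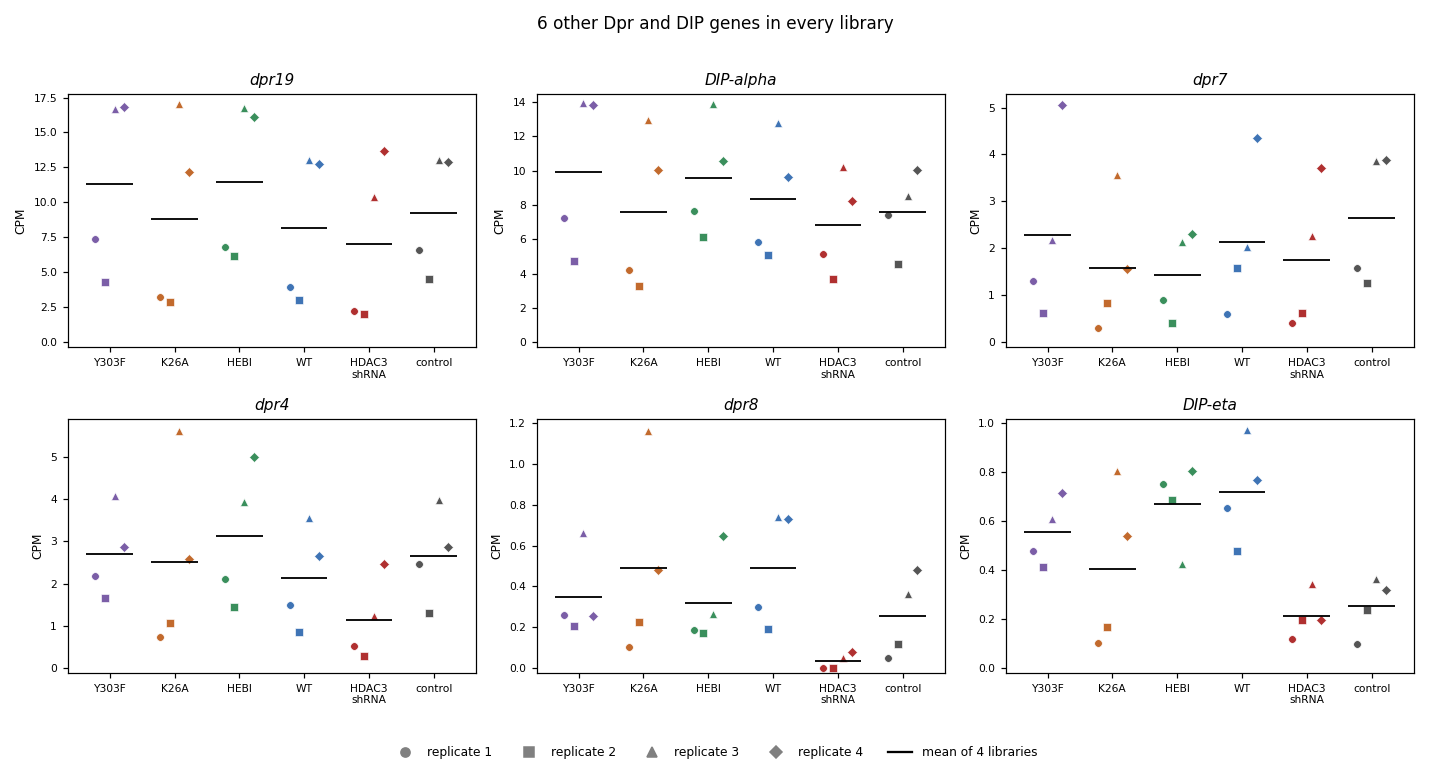
CPM of dpr19, DIP-alpha, dpr7, dpr4, dpr8 and DIP-eta in each library, by genotype, with the replicate number as the marker shape and the mean of 4 libraries as a black line. In dpr19 replicates 3 and 4 (10.4 to 17.01 CPM) lie above replicates 1 and 2 (2.00 to 7.37 CPM) in every genotype, dpr8 is low in HDAC3 shRNA, and DIP-eta is above control in rescue Y303F, HEBI and WT.

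The 3 members with the highest levels per length overlapped control in every rescue. For dpr19 the rescue libraries measured 7.37, 4.32, 16.7 and 16.9 CPM in Y303F, 3.22, 2.86, 17.01 and 12.2 CPM in K26A, 6.83, 6.20, 16.8 and 16.1 CPM in HEBI, and 3.92, 3.01, 13.1 and 12.8 CPM in WT. DIP-alpha measured 7.24, 4.74, 13.9 and 13.8 CPM in Y303F, 4.21, 3.25, 12.95 and 10.1 CPM in K26A, 7.63, 6.14, 13.9 and 10.6 CPM in HEBI, and 5.82, 5.11, 12.7 and 9.61 CPM in WT. The log2 fold changes of dpr19 against control were between -0.18 (rescue WT) and 0.31 (rescue HEBI) and those of DIP-alpha between 0.00 (rescue K26A) and 0.39 (rescue Y303F), and none was called.

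For dpr7 the values were 1.31, 0.618, 2.19 and 5.05 CPM in Y303F, 0.312, 0.840, 3.57 and 1.56 CPM in K26A, 0.894, 0.402, 2.13 and 2.31 CPM in HEBI, and 0.594, 1.58, 2.04 and 4.34 CPM in WT. Its log2 fold changes against control lay between -0.88 (rescue HEBI) and -0.19 (rescue Y303F). The genotype means ran from control, the highest, to rescue HEBI, the lowest, and the libraries overlapped, a spread that includes the replicate number. In rescue HEBI and rescue K26A each library was below the control library of the same number, as was each HDAC3 shRNA library. The share of all genes with this pattern was not counted. With the block rescue HEBI was at -0.95 (SE 0.417, unadjusted p = 0.0334, adjusted p = 0.156, edgeR). In the same fit rescue K26A was at -0.88 (unadjusted p = 0.0488, adjusted p = 0.107) and HDAC3 shRNA at -0.84 (unadjusted p = 0.0560, adjusted p = 0.0925). The gene dpr7 was not called in any rescue or in HDAC3 shRNA.

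The last comparison set the mutant rescues against rescue WT, which asks whether a mutant HDAC3 protein differs from the wild-type one in its effect on the family. No member was called in rescue Y303F, K26A or HEBI against rescue WT, with or without the block, and without it 0.02%, 0.13% and 0.04% of all genes were called in these comparisons. Unadjusted, 0, 1 and 1 of the 18 members had p under 0.05, a threshold for which no share of all genes was counted. DESeq2 called 0 in each. The estimates for dpr6 were 0.51 (SE 0.417) in rescue Y303F, -0.59 (SE 0.421) in rescue K26A and 0.47 (SE 0.416) in rescue HEBI, and those for dpr13 were -1.35 (SE 0.657), -1.78 (SE 0.674) and -0.45 (SE 0.621). For dpr13 in rescue K26A the block gave -1.73 (SE 0.488, adjusted p = 0.0535). The approximate 95% intervals of the log2 fold change, without adjustment for the number of genes, were -0.30 to 1.33 in Y303F, -1.41 to 0.24 in K26A and -0.35 to 1.28 in HEBI for dpr6. For dpr13 they were -2.63 to -0.06, -3.10 to -0.46 and -1.67 to 0.77.

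Some counts carry a limit of position. By default featureCounts leaves out reads that overlap several genes, and the setting used is not stated, so members that share exon bases with another gene may have been measured on the rest, which concerns 15.7% of the exon bases of dpr4 (shared with asRNA:CR45056), 12.6% of those of DIP-theta (lncRNA:CR44822) and 4.04% or less of dpr16, DIP-zeta, DIP-gamma and DIP-alpha. No other member shares exon bases with an annotated gene.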

How the data were processed

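RNA-seq libraries were made from whole embryos with a TruSeq Stranded Total RNA kit, per the labels. The authors aligned reads to dm6 with STAR and made the deposited table of raw counts per gene with featureCounts. Versions, annotation and strand setting: not given in the sources used here. Symbols came from Ensembl release 115 (17253 identifiers matched, 306 did not). The members and gene lists were chosen with earlier results of these data known.

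The tests used edgeR 4.0.16 (R 4.3.3), with TMM scaling (factors 0.862 to 1.23), filterByExpr (minimum count 10), 1 quasi-likelihood model over 24 libraries with a mean per genotype, and 12 contrasts with Benjamini-Hochberg adjustment over the 10003 genes. A call required an adjusted p of at most 0.05 and a change of at least 1 on the log2 scale. Values after ± are SDs, SEs are log2 fold change over the root of F, and p-values measure the spread between the deposited replicates. Described in full were members called in any contrast and the 3 highest per length. Of the gene lists, the text names up to 2 called genes per direction and known partners. DIP-theta, dpr8, DIP-eta and dpr10 were added after their values were seen, as were the genes around dpr6 and DIP-eta. The procedure was tested on simulated data. Alternatives were DESeq2 1.42.0, its size factors, library totals, no filter, the 2 groups alone, replicates 1 and 2 or 3 and 4 alone, each library left out, and the replicate number as a block.

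Libraries with the same number deviated together from their genotype means (r = 0.184 to 0.797, median 0.615, 60 pairs, 23 of 24 libraries closest to their own number). The main model did not use this pairing, and the fits with the replicate number as a block did. All 36 pairs of libraries within genotypes differed beyond sampling noise. The authors' counts of HDAC3 were all 0. No sequences were printed.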

Additional observations from a re-analysis of the deposited data

Results flagged for a closer look

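In 54 groups of 4 libraries, 9 members by 6 genotypes, 2 libraries lay far from the other 3 of their group by Dixon's gap ratio, where chance alone flags about 1 in 20. For dpr8, rescue Y303F replicate 3 was at 0.661 CPM, while the others were at 0.206 to 0.262 CPM. For DIP-theta, rescue HEBI replicate 4 was at 1.02 CPM, while the others were at 0.516 to 0.565 CPM. No cause was tested for either.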

How the results depend on the processing

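The counts of members called moved as follows, with the cause not tested in any case. Shares of all genes are given above only for the main fit and the fit with the block, so the other counts have no background beside them. A change in those counts therefore cannot be told apart here from a change in calls over all genes. With the replicate number as a block, 8 members were called in HDAC3 shRNA against control, 1, 2, 2 and 2 in rescue Y303F, K26A, HEBI and WT against control, and 5, 2, 8 and 4 in the same rescues against HDAC3 shRNA. With only the 2 groups compared in the fit, HDAC3 shRNA against control gave 1, and rescue Y303F, HEBI and WT against HDAC3 shRNA gave 0, 1 and 0, and dpr13 has no value in these fits. Without the filter, rescue K26A against control gave 2, the added member being DIP-lambda with 2 counts in K26A and 22 in control, and rescue HEBI and WT against HDAC3 shRNA gave 1 each. Replicates 1 and 2 alone gave 3 in HDAC3 shRNA against control (dpr4, dpr6 and dpr19, with no value for dpr13), 1 in rescue WT against control and 3, 4 and 1 in rescue Y303F, HEBI and WT against HDAC3 shRNA, and replicates 3 and 4 alone gave 0 in rescue K26A against control and 1 in rescue WT against HDAC3 shRNA. DESeq2 gave 1 in rescue WT against control and 4 in rescue WT against HDAC3 shRNA. Leaving out 1 library gave 2 to 4 members in HDAC3 shRNA against control (4 without control replicate 1), 1 to 2 in rescue HEBI and 0 to 3 in rescue WT against HDAC3 shRNA, and 11 to 14 for the replicate number. The log2 fold change of DIP-alpha in HDAC3 shRNA against control was between -0.417 and 0.0108 in these fits, the last without HDAC3 shRNA replicate 2. In no alternative that gave a value did dpr6 or dpr13 change direction in HDAC3 shRNA against control.

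Depth limits the family. A gene at 0 in a group of 4 libraries could hold up to 0.0359 CPM in HDAC3 shRNA and 0.0414 CPM in control (3 counts, counting error only), and dpr13, dpr8 and the 14 filtered members were near this limit in some groups.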
